A study of Mus musculus with 15 samples.

Results

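The metallothioneins Mt1 and Mt2 and the metal transporters Slc39a14 (ZIP14), Slc30a1 (ZnT1) and Slc30a10 (ZnT10) were examined in RNA sequencing of 15 mouse livers, 5 per group. The genes were taken by symbol from the deposited expression table, and all 5 of them were found among its 17527 genes. BBBPH mice had a diet-induced nonalcoholic steatohepatitis and received biotransformed bear bile powder by mouth every day at 150 mg/kg, starting after 12 weeks of diet, and the labels name this group JDH. Model mice had the same diet and received saline in place of the powder. Control mice are labelled only as control, and the labels state neither what they ate nor whether they received saline. The BBBPH and model mice shared a 20-week diet that took 60% of its energy from fat, 20% from protein and 20% from carbohydrate and held 0.2% cholesterol, with drinking water holding 42 g/L of sugar (55% sucrose and 45% fructose). The labels give 14 mice for the dosed group and 5 libraries from it, and strain, sex and age are not stated in the labels. The labels do not tie each library to a mouse of its own, so the p-values measure the spread between these libraries.

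Metallothioneins are small cysteine-rich proteins that bind zinc and copper in the cytosol. In liver their genes are switched on by zinc, which activates the transcription factor MTF1 at short promoter sequences called metal response elements, and also by glucocorticoids and by the interleukin-6 and STAT3 signal of the acute-phase response. ZIP proteins carry zinc and other divalent metals into the cytosol and ZnT proteins carry them out of it. ZIP14 takes zinc, manganese and non-transferrin-bound iron into hepatocytes and is induced by interleukin-6. ZnT1 exports zinc across the plasma membrane and is itself an MTF1 target, whereas the protein of Slc30a10 exports manganese, and its loss in humans causes manganese overload.

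On GRCm38, the assembly that mm10 names, Mt2 lies on chromosome 8 from 94172664 to 94173568 and Mt1 on the same strand from 94179082 to 94180327, with 5513 bases between them. Slc30a10 (185454848 to 185468762) and Slc30a1 (191906767 to 191913247) lie on the plus strand of chromosome 1, and Slc39a14 (70303469 to 70351425) on the minus strand of chromosome 14. The RefSeq promoter table for GRCm38.p6 matched 4 of the 5 genes by symbol. The bases from 250 to 21 upstream of each RefSeq start are shown because Mt1, Mt2 and Slc30a1 are textbook MTF1 targets, and Slc30a10 is shown beside them. No annotated exon overlaps them, they lie at chr8:94178839-94179068, chr8:94172368-94172597, chr1:191906531-191906760 and chr1:185454598-185454827 on the plus strand, and capitals mark matches to the metal response element core, searched on both strands as TGCACNC or TGCGCNC.
Mt1: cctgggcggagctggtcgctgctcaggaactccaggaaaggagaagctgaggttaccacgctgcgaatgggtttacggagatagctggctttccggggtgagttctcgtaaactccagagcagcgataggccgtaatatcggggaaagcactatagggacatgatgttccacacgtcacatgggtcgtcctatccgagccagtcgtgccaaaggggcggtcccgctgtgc
Mt2: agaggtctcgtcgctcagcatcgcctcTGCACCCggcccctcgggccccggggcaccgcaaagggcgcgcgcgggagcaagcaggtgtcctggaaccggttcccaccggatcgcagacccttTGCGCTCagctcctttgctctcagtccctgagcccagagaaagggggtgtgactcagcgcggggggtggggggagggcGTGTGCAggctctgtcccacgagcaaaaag
Slc30a1: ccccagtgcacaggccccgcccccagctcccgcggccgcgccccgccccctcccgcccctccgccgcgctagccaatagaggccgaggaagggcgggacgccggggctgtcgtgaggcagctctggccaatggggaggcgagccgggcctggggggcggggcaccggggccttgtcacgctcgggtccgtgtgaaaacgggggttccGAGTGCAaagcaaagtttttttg
Slc30a10: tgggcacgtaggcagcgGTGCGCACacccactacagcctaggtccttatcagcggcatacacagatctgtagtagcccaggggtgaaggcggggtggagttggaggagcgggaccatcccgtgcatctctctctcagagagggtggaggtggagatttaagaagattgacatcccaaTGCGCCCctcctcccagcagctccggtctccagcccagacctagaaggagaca
The Mt2 window held 3 matches, the Slc30a1 window 1 and the Slc30a10 window 3, of which a plus-strand and a minus-strand match overlap. The Mt1 window held 0, which says only that these letters are not in these 230 bases, and GENCODE annotates further Mt1 transcripts that start downstream of the window. Of 32851 such windows, 19.45% held at least 1 match and 1.059% at least 3. The antioxidant response element core TGACNNNGC, found in 9.19% of windows, occurred once in each of the Mt2 and Slc30a1 windows, and the STAT element TTCNNNGAA, found in 6.478%, in none of the 4.

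Expression is given as the authors' FPKM (fragments per kilobase of gene, scaled to the fragments mapped in the library), which allows levels of different genes to be set side by side. Libraries held 35395712 to 39624160 fragments as recovered from the values, and the fewest fragments behind a value of the 5 genes were 91, for Mt2 in a control library. Libraries are named by group and the replicate number of the labels. Differences were tested with limma on log2(FPKM + 1) for the 9575 genes whose mean over libraries reached 1 FPKM, and a gene was called at a Benjamini-Hochberg adjusted p under 0.05. All 5 genes passed this filter. Fold changes on this scale understate those of low genes. The median log2 fold change of all tested genes was 0.12 for model against control, 0.02 for BBBPH against model and 0.13 for BBBPH against control, and median-ratio scaling of the libraries gave medians of -0.01, 0.01 and -0.01 in that order. In bulk liver, fewer cells of a type and less RNA per cell cannot be told apart.

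Against control livers, model livers had higher Mt1, Mt2, Slc39a14 and Slc30a10 mRNA, and Slc30a1 was not called. BBBPH livers differed from model livers in Slc30a1 alone among the 5 genes, which was higher. Against control livers, BBBPH livers had higher Mt1, Mt2, Slc30a1 and Slc30a10. These are 4 of 5 genes called higher in model against control livers, where 29.9% of all tested genes were called higher and 8.64% lower (38.6% in all), 1 of 5 in BBBPH against model livers, where 14.2% were called higher and 12.2% lower (26.5% in all), and 4 of 5 in BBBPH against control livers, where 24.4% were called higher and 3.7% lower (28.1% in all). In BBBPH against control livers, none of the 4 calls held with median-ratio or quantile scaling. Fits of that comparison without 1 library called 1 to 3 of the 5 genes. The Slc39a14 call in model against control livers was also lost with both scalings. The comparisons share groups, so their values are set side by side and not counted as independent of each other.

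**Figure D1:**
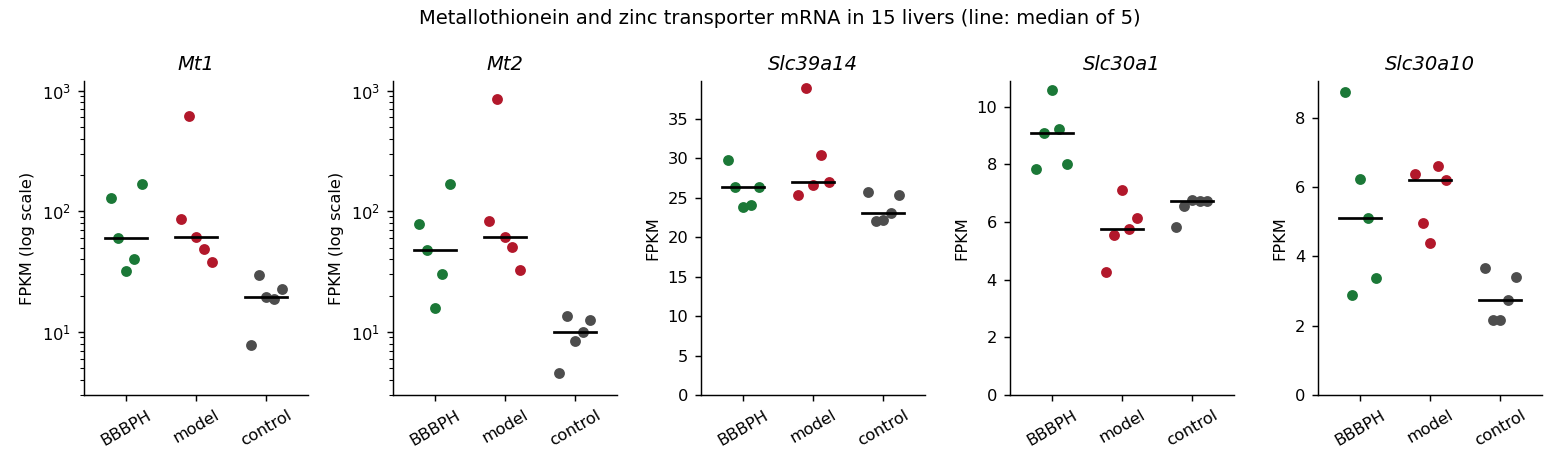
Levels of the 5 genes in FPKM, 1 point per library and a line at the median of each group, with BBBPH, model and control from left to right and log axes for Mt1 and Mt2. Every control point for Mt1 and Mt2 lies below every model and BBBPH point, and all 5 BBBPH points for Slc30a1 lie above all model and control points.

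Mt1 stood at 130, 59.7, 31.7, 39.8 and 167 FPKM in BBBPH livers 2_1, 2_2, 3_1, 3_2 and 3_4. In model livers 1_1, 1_4, 2_1, 2_3 and 3_4 it stood at 85.7, 617, 61.5, 48.6 and 37.8 FPKM. In control livers 1_1, 1_5, 2_1, 2_2 and 3_4 it stood at 7.84, 29.9, 19.3, 18.8 and 22.5 FPKM. Both diet-fed groups thus lay wholly above the control group and overlapped each other, with model library 1_4 far above the rest. The means were 85.6 ± 59.7 FPKM in BBBPH livers, 170 ± 251 FPKM in model livers and 19.7 ± 7.96 FPKM in control livers (SD, n = 5 each).

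The log2 fold change of Mt1 in model over control livers was 2.26 ± 0.65 (SE; 95% interval 0.88 to 3.64; limma adjusted p = 0.0127). Without model library 1_4 it was 1.57, with an adjusted p of 0.0162. In BBBPH over control livers it was 1.89 (interval 0.51 to 3.26; limma adjusted p = 0.0408). It lost its call with median-ratio scaling (1.72, adjusted p = 0.0864), without the filter on low values (adjusted p = 0.0822), and in 7 of 10 fits that left out 1 library, those of BBBPH 2_1, 2_2 or 3_4 or control 1_1, 2_1, 2_2 or 3_4 (adjusted p up to 0.0976). Between BBBPH and model livers the change was -0.37 (interval -1.75 to 1.01; limma adjusted p = 0.713), and 0.32 without model library 1_4, so its direction rested on that library.

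Mt2 had 78.7, 48.1, 15.7, 30.1 and 168 FPKM in the BBBPH livers in the same order of numbers. It had 83.2, 853, 60.9, 50.1 and 32.6 FPKM in the model livers. It had 4.53, 13.5, 8.35, 10.04 and 12.7 FPKM in the control livers. The order of libraries resembled that of Mt1, with model library 1_4 highest and control library 1_1 lowest, and again no control library reached the lowest diet-fed one. The spread was wide in the model group, whose highest value was 26.2 times its lowest, against 2.97 times in the control group. Group means were 68.0 ± 60.4 FPKM in BBBPH livers, 216 ± 356 FPKM in model livers and 9.81 ± 3.59 FPKM in control livers (SD, n = 5 each).

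Mt2 showed a log2 fold change of 3.21 ± 0.74 in model over control livers (SE; interval 1.64 to 4.78; limma adjusted p = 0.00344), the largest of the 5 genes. Without model library 1_4 it was 2.42, with an adjusted p of 0.00269. The change in BBBPH over control livers was 2.31 (interval 0.74 to 3.89; limma adjusted p = 0.0302). Without the filter, with median-ratio scaling and with a count model (voom) the adjusted p was 0.0634, 0.062 and 0.101, and 5 of 10 fits without 1 library also lost the call, those without BBBPH 2_1 or 3_4 or control 1_1, 2_1 or 2_2 (adjusted p up to 0.0756). Between BBBPH and model livers the value was -0.90 (interval -2.47 to 0.68; limma adjusted p = 0.401), an interval with room for changes in both directions. Without model library 1_4 it was -0.10.

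The remaining metallothioneins gave little signal. Mt3, known from brain, was above 0 in 1 of 15 libraries, at 0.205 FPKM, and Mt4, known from squamous epithelium, was at 0 in all 15. Mt1 and Mt2 are similar in sequence, so the authors' counting could have split or dropped fragments between them, and the kit's strand setting is not stated.

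The balance between Mt1 and Mt2 also differed between groups. In FPKM, Mt1 was 1.65, 1.24, 2.02, 1.32 and 0.996 times Mt2 in the BBBPH livers, 1.03, 0.724, 1.01, 0.970 and 1.16 times in the model livers, and 1.73, 2.22, 2.32, 1.87 and 1.78 times in the control livers. Control livers thus held more Mt1 than Mt2 without exception, model livers held about equal levels, and BBBPH livers spread between them. The log2 ratio, with 1 FPKM added to each gene, averaged 0.48 ± 0.38 in BBBPH livers, -0.05 ± 0.25 in model livers and 0.90 ± 0.20 in control livers (SD, n = 5 each). Model livers lay 0.95 below control livers by an exact 2-sided permutation test (p = 0.00794, the smallest that 5 libraries a group allow; adjusted over 3 comparisons p = 0.0238). BBBPH livers lay 0.52 above model livers (exact permutation p = 0.0317, adjusted p = 0.0476), a call that ended in 9 of 10 tests that left out 1 library, where the adjusted p reached 0.0952; it held without BBBPH 3_4. BBBPH livers averaged 0.43 less than control livers (exact permutation p = 0.0635, adjusted p = 0.0635), and without BBBPH 3_1 that difference was called (-0.55, adjusted p = 0.0476). The absolute ratio depends on the gene lengths the authors used, 1045 bases for Mt1 and 556 for Mt2, which are the same in every library.

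**Figure D2:**
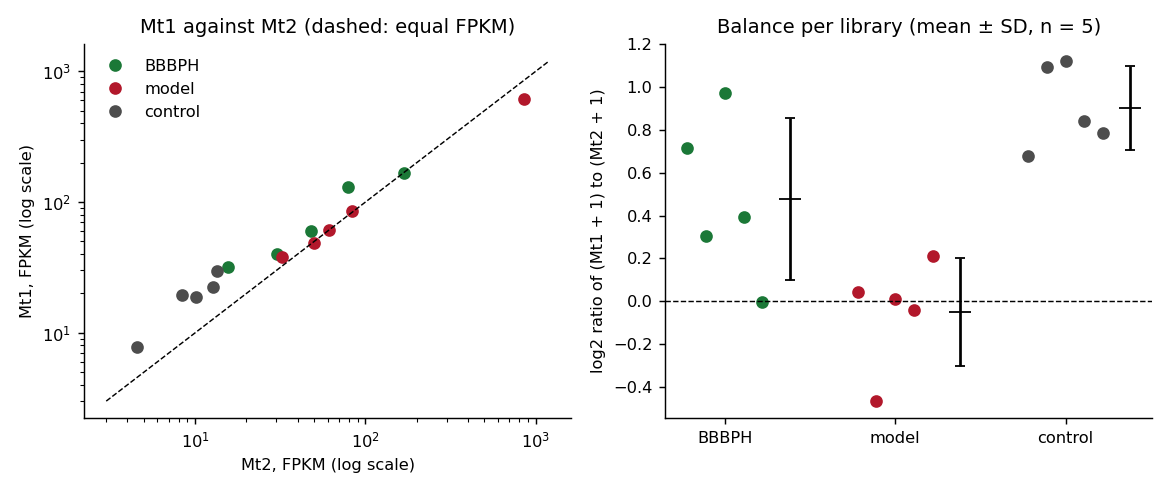
Left, Mt1 against Mt2 in FPKM on log axes, 1 point per library, with a dashed line of equal level; right, the log2 ratio of Mt1 to Mt2 (1 FPKM added to each) per library beside the mean ± SD of each group. Control libraries all lie above the line of equality, and model libraries lie on or near it with 1_4 below at -0.47.

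Over the 15 libraries the acute-phase genes Saa1, Saa2 and Lcn2 correlated with the metallothioneins, while their calls between groups differed in part. Model library 1_4, highest in Mt1 and Mt2, held 9049 FPKM of Saa1, 14970 of Saa2 and 2236 of Lcn2, where the other 4 model libraries held 74.7 to 304, 61.6 to 194 and 19.4 to 92.3 FPKM. In the BBBPH group, library 2_1 stood highest for Saa1 (196 FPKM) and Lcn2 (51.2 FPKM) and second for Mt1, while library 3_4, highest for Mt1 and Mt2, held 49.7 and 18.4 FPKM. Lcn2 was 0.869 correlated with Mt1 and 0.901 with Mt2 over the 15 libraries on the log2 scale, and 0.820 and 0.816 once group means were removed. For Mt1 and Mt2 in that order, Saa1 correlated at 0.795 and 0.808 and Saa2 at 0.810 and 0.841. These values describe libraries that share groups and, in part, the single library 1_4. In model over control livers Lcn2 had a log2 fold change of 4.51 (limma adjusted p = 0.00178). Lcn2 in BBBPH over model livers had -2.35 (adjusted p = 0.0786, not called), against -0.90 for Mt2. There Saa1 (-2.87) and Saa2 (-3.52) were called lower, with limits given below, and Mt1 and Mt2 were not called. In BBBPH over control livers, where Mt1 and Mt2 were called higher, Saa1 (0.67, limma adjusted p = 0.64) and Saa2 (0.88, 0.57) were not. Nor was Lcn2 (2.16, limma adjusted p = 0.097). The part of the acute-phase signal in the metallothionein levels was not tested.

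**Figure D3:**
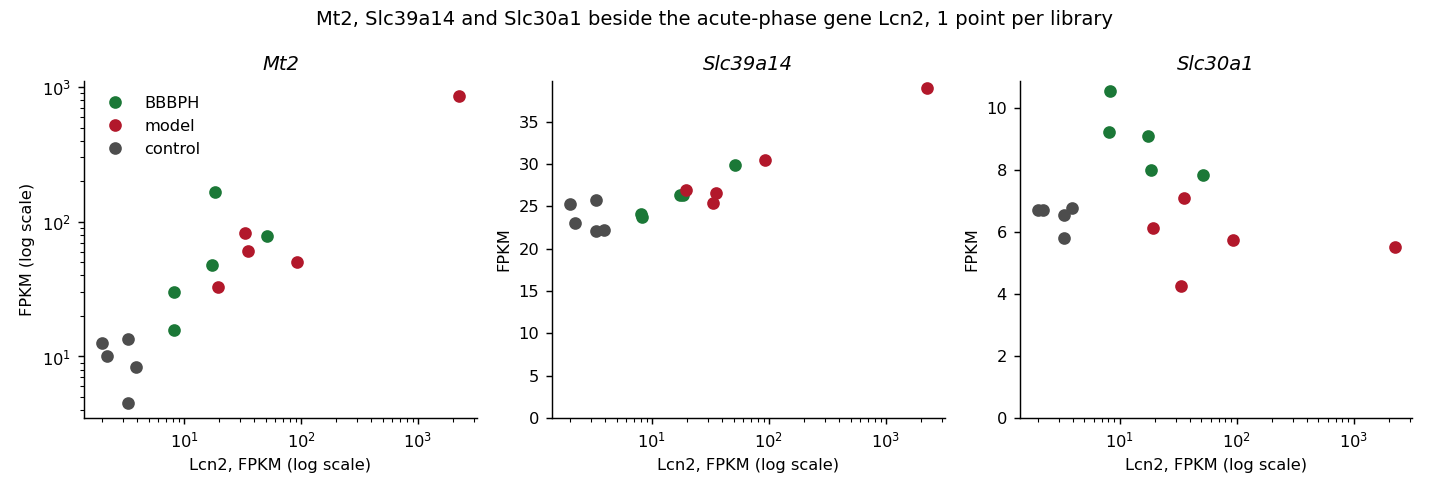
Mt2 (log axis), Slc39a14 and Slc30a1 in FPKM against Lcn2 in FPKM (log axis), 1 point per library coloured by group. Mt2 and Slc39a14 are highest in model library 1_4, where Lcn2 reaches 2236 FPKM, while Slc30a1 in that library is 5.53 FPKM, below all BBBPH libraries.

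Slc39a14, the importer, varied little. Its levels were 29.8, 26.3, 23.8, 24.1 and 26.4 FPKM in BBBPH livers, 25.4, 39.0, 26.6, 30.5 and 27.0 FPKM in model livers, and 25.8, 22.1, 22.2, 23.1 and 25.3 FPKM in control livers. Model library 1_4 was again highest, and the model and control ranges overlapped through control library 1_1 and model library 1_1. The mean was 26.1 ± 2.41 FPKM in BBBPH, 29.7 ± 5.52 FPKM in model and 23.7 ± 1.72 FPKM in control livers (SD, n = 5 each).

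In model over control livers Slc39a14 had a log2 fold change of 0.30 ± 0.10 (SE; interval 0.08 to 0.51; limma adjusted p = 0.0307). This call was the least stable of the 4: it was lost with median-ratio scaling (0.15, adjusted p = 0.338), with quantile scaling (0.18, adjusted p = 0.233) and in 5 of 10 fits without 1 library, those without model 1_4 or 2_3 or control 1_5, 2_1 or 2_2 (adjusted p 0.0587 to 0.0665). Slc39a14 was not called in BBBPH over model livers (-0.17, interval -0.38 to 0.05; limma adjusted p = 0.25) or over control livers (0.13, interval -0.08 to 0.35; adjusted p = 0.342), and median-ratio scaling turned the second of these values to -0.04.

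Slc30a1, the zinc exporter, was the gene of the 5 that was called in BBBPH against model livers. It was at 7.84, 9.10, 10.6, 9.24 and 8.004 FPKM in BBBPH livers, at 4.27, 5.53, 7.10, 5.74 and 6.14 FPKM in model livers, and at 5.81, 6.54, 6.77, 6.73 and 6.71 FPKM in control livers. The lowest BBBPH library exceeded the highest library of both other groups, while model and control libraries overlapped. Its mean was 8.95 ± 1.10 FPKM in BBBPH, 5.75 ± 1.03 FPKM in model and 6.51 ± 0.40 FPKM in control livers (SD, n = 5 each).

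The log2 fold change of Slc30a1 in BBBPH over model livers was 0.57 ± 0.10 (SE; interval 0.35 to 0.78; limma adjusted p = 0.000839). It kept its direction and call with median-ratio scaling (0.55) and quantile scaling (0.56) and without each library in turn (0.48 to 0.63). With the whole replicate number as a block it kept its direction but lost its call (0.34, adjusted p = 0.187). Over control livers, the change in BBBPH livers was 0.40 (interval 0.19 to 0.61; limma adjusted p = 0.00975), which was no longer called with median-ratio scaling (0.25, adjusted p = 0.066) and quantile scaling (0.26, adjusted p = 0.0584). In model over control livers it was -0.17 (interval -0.38 to 0.05; limma adjusted p = 0.203) and not called, but it was called lower with median-ratio scaling (-0.30, adjusted p = 0.0146) and quantile scaling (-0.30, adjusted p = 0.0189). Slc30a1 and the metallothioneins are taken as MTF1 targets, and over the 15 libraries their log2 values correlated at -0.08 for Mt1 and -0.15 for Mt2, against 0.984 between Mt1 and Mt2.

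Slc30a10, the manganese exporter, was at 8.73, 2.89, 6.24, 5.09 and 3.38 FPKM in BBBPH livers. It was at 6.37, 4.96, 4.38, 6.61 and 6.21 FPKM in model livers and at 3.67, 2.17, 2.15, 2.74 and 3.41 FPKM in control livers. All model libraries stood above all control libraries, and BBBPH libraries spread over both ranges, with 2_2 and 3_4 within the control range and 2_1 above every other library. The mean was 5.26 ± 2.36 FPKM in BBBPH, 5.71 ± 0.98 FPKM in model and 2.83 ± 0.70 FPKM in control livers (SD, n = 5 each).

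In model over control livers Slc30a10 had a log2 fold change of 0.81 ± 0.21 (SE; interval 0.37 to 1.26; limma adjusted p = 0.00661). Its change in BBBPH over control livers was 0.65 (interval 0.21 to 1.09; limma adjusted p = 0.0308), which was not called with median-ratio scaling (0.51, adjusted p = 0.121), without the filter (adjusted p = 0.0626), in a fit of these groups alone (adjusted p = 0.0548) and in 6 of 10 fits without 1 library, those without BBBPH 2_1, 3_1 or 3_2 or control 1_5, 2_1 or 2_2 (adjusted p up to 0.0698). Between BBBPH and model livers it was -0.17 (interval -0.61 to 0.28; limma adjusted p = 0.6).

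**Figure D4:**
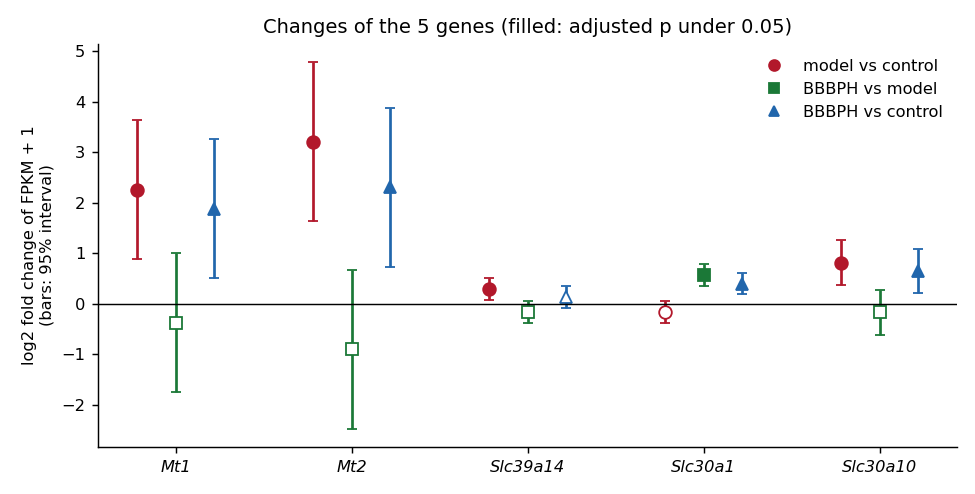
Log2 fold change of FPKM + 1 for each gene in model over control, BBBPH over model and BBBPH over control livers, with 95% intervals; filled symbols have an adjusted p under 0.05. The intervals of Mt1 and Mt2 are several times wider than those of Slc39a14 and Slc30a1, and Slc30a1 has the only filled symbol for BBBPH over model livers, at 0.57.

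Set side by side per length, the order of the 5 genes changed between groups. By median, BBBPH livers held 59.7 FPKM of Mt1, 48.1 of Mt2, 26.3 of Slc39a14, 9.10 of Slc30a1 and 5.09 of Slc30a10. Model livers held 61.5 of Mt1, 60.9 of Mt2, 27.0 of Slc39a14, 6.21 of Slc30a10 and 5.74 of Slc30a1. Control livers held 23.1 of Slc39a14, 19.3 of Mt1, 10.04 of Mt2, 6.71 of Slc30a1 and 2.74 of Slc30a10. Neighbours in these orders overlapped over libraries except Slc39a14 and the gene below it in BBBPH and model livers, and Slc30a1 and Slc30a10 in control livers.

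The rest of both transporter families comprised 21 genes in the table, of which 13 passed the filter, and the 2 with the smallest adjusted p in any comparison are given by library. Slc39a4 (ZIP4), best known as the zinc importer of the gut, was at 20.5, 27.3, 15.3, 19.2 and 17.1 FPKM in BBBPH livers. It was at 10.6, 6.88, 11.9, 9.56 and 7.04 FPKM in model livers and at 5.83, 6.96, 5.96, 6.95 and 6.57 FPKM in control livers. No BBBPH library overlapped with either other group. Its log2 fold change was 1.04 in BBBPH over model livers (interval 0.72 to 1.36; limma adjusted p = 0.000183) and 1.46 in BBBPH over control livers (interval 1.14 to 1.78; limma adjusted p = 4.9e-05), and both were called under every alternative run.

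Slc30a5 (ZnT5), which loads zinc into the early secretory pathway, was at 14.1, 15.1, 17.8, 13.7 and 15.3 FPKM in BBBPH livers. It was at 19.5, 24.7, 19.5, 21.4 and 22.1 FPKM in model livers and at 12.8, 12.8, 13.9, 13.3 and 15.5 FPKM in control livers. Model libraries exceeded all others, and BBBPH and control libraries overlapped. It rose in model over control livers (0.61, interval 0.44 to 0.79; limma adjusted p = 6.7e-05) and fell in BBBPH over model livers (-0.47, interval -0.64 to -0.29; limma adjusted p = 0.000739), and was not called in BBBPH over control livers (0.14, adjusted p = 0.202).

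Over these 13 genes, 5 were called higher and 0 lower in model over control livers, where 29.9% and 8.64% of all genes were (median log2 fold change 0.20, against 0.12 for all genes). Besides Slc30a5 they were Slc39a9 (0.33), Slc39a8 (0.28), Slc39a1 (0.27) and Slc39a4 (0.43, adjusted p = 0.0352). With median-ratio scaling Slc39a1, Slc39a4 and Slc39a8 were no longer called, and the call of Slc39a4 also ended without any 1 of 6 libraries (model 1_1, 2_1 or 2_3, control 1_1, 2_1 or 3_4; adjusted p up to 0.0958). For BBBPH over model livers 1 was higher (Slc39a4) and 3 were lower, against 14.2% and 12.2% of all genes (median 0.03, against 0.02), namely Slc30a5, Slc39a11 (-0.37, lost without BBBPH 3_1, adjusted p = 0.0503) and Slc39a8 (-0.22, lost without any 1 of 7 libraries: BBBPH 2_1, 2_2, 3_2 or 3_4, model 2_1, 2_3 or 3_4; adjusted p up to 0.0902). For BBBPH over control livers 2 were higher, Slc39a4 and Slc39a9 (0.24, lost with median-ratio scaling, adjusted p = 0.43), and 0 lower, against 24.4% and 3.7% of all genes (median 0.21, against 0.13). The importers Slc39a2, Slc39a5, Slc39a6, Slc39a10 and Slc39a12 and the exporters Slc30a2, Slc30a3 and Slc30a8 were too low to be tested.

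**Figure D5:**
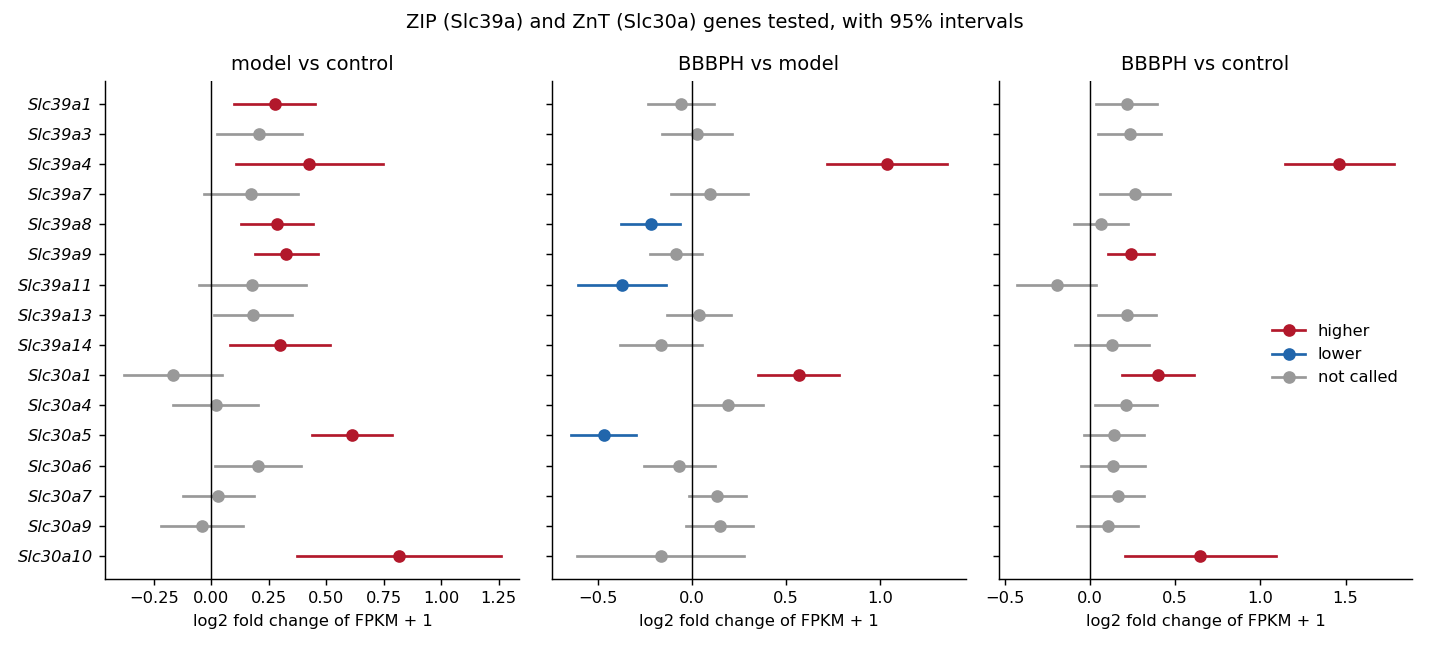
Log2 fold change of FPKM + 1 with 95% intervals for the 16 ZIP and ZnT genes that passed the filter, in model over control, BBBPH over model and BBBPH over control livers, coloured by call. Slc39a4 and Slc30a1 lie to the right in both BBBPH comparisons, and Slc30a5 lies to the right in model over control livers and to the left in BBBPH over model livers.

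Mtf1, the zinc-sensing factor, was not called, at 2.43 ± 0.28 FPKM in BBBPH, 2.78 ± 0.14 in model and 2.45 ± 0.15 in control livers (SD, n = 5 each). Among 7 tested genes of a list of Mtf1 and its targets, 4 were higher in model over control livers (29.9% of all genes were), namely Mt1, Mt2, Gclc (0.88) and Ndrg1 (0.65). Gclc makes the first step of glutathione synthesis. Gclc (-0.84) and Ndrg1 (-0.62) fell in BBBPH over model livers while Slc30a1 rose. The list holds Mt1, Mt2 and Slc30a1 themselves. Its median of -0.37 (0.02 for all genes) is the uncalled value of Mt1, whose direction rested on model library 1_4.

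Genes of copper handling were called higher in model over control livers in 4 of 11 cases, near the 29.9% of all genes, among them Atox1 (0.68), the chaperone that hands copper to the export pumps, and Cp (0.38), which encodes ceruloplasmin. For BBBPH over model livers 1 was higher and 2 were lower, where 14.2% and 12.2% of all genes were: the biliary copper pump Atp7b rose (0.53, with 5.91 ± 1.69 FPKM in BBBPH and 3.69 ± 0.43 FPKM in model livers) and Atox1 (-0.43) and Atp7a (-0.40) fell. Of 10 genes of manganese and divalent metal transport, 5 were higher in model over control livers, where 29.9% of all genes were. They include Slc30a10 and Slc39a14, already counted above, beside Slc39a8, Atp2c1 (0.21) and the Golgi manganese transporter Tmem165 (0.40). Slc39a14 and Slc39a8 lost their calls with median-ratio scaling, and Atp2c1 in 4 of 10 fits that left out 1 library. The share was not tested. In BBBPH over model livers 1 was higher and 1 lower, where 14.2% and 12.2% of all genes were.

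Lists for the other inducers of metallothioneins, which hold regulators as well as targets, were counted in the same way, and their counts are to be read against the 29.9% higher and 8.64% lower of all genes in model over control livers and the 14.2% higher and 12.2% lower in BBBPH over model livers. Of 16 genes of the interleukin-6 and STAT3 axis, 7 were higher in model over control livers and 4 lower in BBBPH over model livers, among them Saa2 (-3.52, adjusted p = 0.0287), Saa1 (-2.87, adjusted p = 0.0453) and the interleukin-1 receptor antagonist Il1rn (-0.87). The Saa1 and Saa2 calls ended without BBBPH 2_2, 3_1 or 3_2, and that of Saa1 also without BBBPH 3_4 or model 2_3 (adjusted p up to 0.101). In BBBPH over control livers 1 of the 16 was higher (Il1rn, 0.97) and 1 lower, where 24.4% and 3.7% of all genes were. The lower gene was Socs3 (-1.29, limma adjusted p = 0.0143). In model over control livers Socs3 had -0.61 and was not called (limma adjusted p = 0.178). Of 12 genes of the glucocorticoid axis, among them the receptor gene Nr3c1, 3 were higher and 2 lower in model over control livers, and 1 was higher and 5 lower in BBBPH over model livers. Hsd11b1, whose enzyme activates glucocorticoids, was a gene that fell in the first of these (-0.38; not called without model 2_3 or control 2_2, adjusted p up to 0.0627) and the one that rose in the second (0.43; both calls ended without model 1_4, BBBPH 2_2 and control 2_1 together). The others included Cdkn1a, a cell-cycle inhibitor (2.68 in model over control and -2.71 in BBBPH over model livers), and Zbtb16 (1.47 and -2.21). Other called genes of the list took other courses. Tat (-1.16) and Klf9 (-0.68) fell in BBBPH over model livers but were not called in model over control livers (-0.47 and 0.31). Pck1 fell in model (-0.98) and BBBPH livers (-1.30) over control livers and was not called in BBBPH over model livers. Fkbp5 was higher in model (0.70, a call lost in 7 of 10 fits without 1 library) and BBBPH livers (1.005) over control livers. In BBBPH over control livers 1 gene of this list was higher, Fkbp5, where 24.4% of all genes were. There 4 were lower, among them Tat (-1.62), Pck1 and Per1 (-0.87), where 3.7% of all genes were. Of 9 tested genes of the NRF2 axis, 6 were higher in model over control livers, among them Nfe2l2, which encodes NRF2, and Keap1 (0.32), which encodes its inhibitor. In BBBPH over model livers 5 were lower, and Nfe2l2 and Keap1 were not called. In BBBPH over control livers 1 was higher (Keap1, 0.26) and 0 lower, where 24.4% and 3.7% of all genes were. The targets included Srxn1 at 1.48 in model over control and -1.13 in BBBPH over model livers, and Hmox1, which encodes heme oxygenase, at 0.82 and -0.99. Mt1 and Mt2, also called higher in model over control livers, were not called in BBBPH over model livers. Their intervals there (-1.75 to 1.01 for Mt1 and -2.47 to 0.68 for Mt2) include the values of Srxn1 and Hmox1. Whether their changes differ from those of the NRF2 targets was not tested.

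Among tested genes other than the 5 themselves, those whose pattern was most like each of the 5 were ranked by Pearson correlation of log2(FPKM + 1) over the 15 libraries, which share groups and diet. For Mt1 and Mt2, which correlated at 0.984 with each other, Tmprss2 came first, which encodes a membrane serine protease (0.895 and 0.914), with Lcn2 and, for Mt2, Il1rn (0.884) among the first 5. For Slc39a14 the first 5 were Slc41a2 (0.931), Lrg1 (0.926), Lcn2 (0.925), Il1r1 (0.912) and Serpina3n (0.906), of which Lrg1, Lcn2 and Serpina3n encode secreted acute-phase proteins. For Slc30a1 they were Zkscan17 (0.946), Tbc1d24, Il17rc, Rhno1 and Slc8b1 (0.911), and for Slc30a10 Dpp9 (0.939), Ncbp1, Tars, Trim2 and Kdm5c (0.902). No gene was shared between the lists of Slc30a1 or Slc30a10 and those of the other 3, but lists of 5 out of all tested genes are too short to set patterns apart. Slc30a10 itself correlated at 0.517 with Slc39a14 and 0.516 with Lcn2 (0.173 and -0.030 once group means were removed).

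Summed levels of cell type markers are given beside these results, with counts to be read against the same shares of all genes. The 6 hepatocyte markers summed to 53360 to 63760 FPKM in BBBPH, 30500 to 54060 in model and 58820 to 66840 in control livers, with 4 of 6 called lower in model over control livers and the lowest sum in model library 1_4. The 8 neutrophil markers summed to 6.08 to 126, 12.0 to 79.6 and 1.97 to 35.3 FPKM in BBBPH, model and control livers, and 1 of 3 tested was called, higher in model over control livers. The 10 Kupffer cell and macrophage markers summed to 256 to 426, 215 to 353 and 208 to 280 FPKM in the same order of groups, with 3 of 10 higher in model over control livers, the share of all genes, and 2 higher and 2 lower in BBBPH over model livers. Stellate cell and fibroblast markers summed to 145 to 156, 158 to 198 and 121 to 143 FPKM, and of 9 such genes 7 were higher in model over control livers and 4 lower in BBBPH over model livers. The 5 adipocyte markers summed to 0.141 to 1.46 FPKM in BBBPH, 6.16 to 49.4 in model and 0.236 to 7.53 in control livers. Only 1 of them was tested, Cfd, called higher in model over control livers (3.51) and lower in BBBPH over model livers (-4.11). Its means of 0.413, 29.15 and 1.58 FPKM in BBBPH, model and control livers made up much of these sums. The 5 cholangiocyte markers summed to 21.9 to 33.7 FPKM in BBBPH, 24.9 to 255 in model and 23.5 to 26.6 in control livers, with neither of the 2 tested called. Those 2 were Spp1 and Krt19, at means of 72.2 and 1.015 FPKM in model livers. The 5 erythroid markers summed to 357 to 716, 331 to 432 and 314 to 802 FPKM in BBBPH, model and control livers, with 2 higher and 1 lower in BBBPH over model livers. Endothelial markers (3 of 7 higher and 1 lower in model over control livers) summed to 146 to 153, 113 to 155 and 120 to 137 FPKM, and those of T and NK cells and of B and plasma cells to at most 7.31 FPKM. Pancreatic acinar markers reached 3610 FPKM in BBBPH library 2_2, and skeletal muscle markers 351 FPKM in control library 2_1. Without model 1_4, BBBPH 2_2 and control 2_1 together, the log2 fold change was 1.59 for Mt1 and 2.38 for Mt2 in model over control livers, 0.55 for Slc30a1 and 0.83 for Slc39a4 in BBBPH over model livers, all still called. The part of the cell types marked in these results was not tested.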

How the data were processed

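Values are the authors' FPKM as deposited, 1 column per library with no pooling, and the single files equalled the series table (largest difference 0 FPKM). Per the submitters' processing notes, the build was mm10 and the tools were HTSeq, HISAT2, DESeq2 and fastp, with no versions or roles given, and the gene annotation is not given in the sources used here. The library kit (VAHTS Universal V6) comes from the labels' protocols. Fragment totals and gene lengths were recovered from whole-number ratios of the values (15267 genes, values within 0.02 of a whole number). Values on the scale log2(FPKM + 1) were tested in R 4.3.3 with limma 3.58.1, aided by statmod 1.5.0, with 3 group means over 15 libraries, 12 residual degrees of freedom, eBayes with trend, and Benjamini-Hochberg adjustment over 9575 genes within each comparison. It was tested on simulated data. The log2 ratio of Mt1 to Mt2 was tested by exact permutation. Other steps ran in Python 3.11.15 (scipy 1.17.1, pandas 2.3.3, numpy 2.4.6; plots by matplotlib 3.10.9). Positions are from GENCODE M21.

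The 5 genes and the gene lists were chosen with earlier results of these data known. Named are the 5 genes whatever their values, genes of the metallothionein, ZIP and ZnT lists and Mtf1, up to 4 called genes with the smallest adjusted p per other list and comparison, Saa1, Saa2 and Lcn2, and the 5 genes most correlated with each of the 5. Nfe2l2, Nr3c1 and, in BBBPH over model livers, Hsd11b1, Keap1 and Pck1 fall outside this rule and were named after their values were seen. The same holds for the markers Cfd, Spp1 and Krt19 and, in model over control livers, for Fkbp5, Tat, Klf9 and Socs3. Alternatives changed 1 choice at a time: the pseudocount (0.1), the filter (none, or 5 FPKM), the scaling (TPM, median-ratio, quantile), the variance model (robust eBayes, library weights), the samples (fits of 2 groups, each library left out, and model 1_4, BBBPH 2_2 and control 2_1 left out together), the unit (voom on recovered counts) and a block for the whole replicate number or for its first digit.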

Additional observations from a re-analysis of the deposited data

Results flagged for a closer look

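Within groups of 5, single libraries were compared with the rest by Dixon's gap test (critical value 0.71), over the 5 genes, the ratio of Mt1 to Mt2, Saa1, Saa2 and Lcn2, which makes 27 groups. Of the 27 groups, 8 were marked. A rate of about 1 in 20 by chance holds for normally distributed values. FPKM values were tested without logs, and only the ratio on the log2 scale, so the 8 marks cannot be read against that rate. Model library 1_4 was far above the other model libraries for Mt1 (617 FPKM, others 37.8 to 85.7), Mt2 (853 FPKM, others 32.6 to 83.2), Saa1 (9049 FPKM, others 74.7 to 304), Saa2 (14970 FPKM, others 61.6 to 194) and Lcn2 (2236 FPKM, others 19.4 to 92.3). These 5 marks belong to 1 library and are not independent of each other. BBBPH library 2_1 was above the other BBBPH libraries for Saa1 (196 FPKM, others 19.2 to 49.7) and Lcn2 (51.2 FPKM, others 8.13 to 18.4). Control library 1_1 was below the other control libraries for Slc30a1 (5.81 FPKM, others 6.54 to 6.77).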

How the results depend on the processing

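Mt2 in model over control livers and Slc39a4 in both BBBPH comparisons kept direction and call under every alternative run. With no filter on low values, BBBPH over control livers kept 1 called gene of the 5. Mt1 (1.89, limma adjusted p = 0.0822), Mt2 (2.31, 0.0634) and Slc30a10 (0.65, 0.0626) lost their calls in that fit. Median-ratio scaling left 0 called there, with Mt1 at 1.72 (adjusted p = 0.0864), Mt2 at 2.15 (0.062), Slc30a1 at 0.25 (0.066), Slc30a10 at 0.51 (0.121) and Slc39a14 at -0.0365. Quantile scaling also left 0, with Mt1 at 1.76 (0.0814), Mt2 at 2.17 (0.0616), Slc30a1 at 0.26 (0.0584) and Slc30a10 at 0.49 (0.138). Robust eBayes left 2, with Mt1 at 1.89 (0.0701) and Mt2 at 2.31 (0.0548). Voom gave 2.44 for Mt2 (0.101), library weights 0.52 for Slc30a10 (0.055) and the fit of 2 groups 0.65 for Slc30a10 (0.0548). In model over control livers, Slc39a14 was 0.15 with median-ratio scaling, 0.18 with quantile scaling (0.233) and 0.18 without model 1_4, BBBPH 2_2 and control 2_1 together (0.139), and Slc30a1 was called at -0.30 under both scalings. Both scalings changed the calls over all tested genes to 1483 higher and 1809 lower (median-ratio) and 1499 and 1742 (quantile), against 2865 and 827 in model over control livers. The counts in BBBPH over model livers were 1337 and 1307, and 1439 and 1290, against 1364 and 1169. Those in BBBPH over control livers were 667 and 944, and 691 and 849, against 2337 and 354. For BBBPH over model livers the uncalled Mt1 value was 0.37 without these 3 libraries. Mtf1, never called, was -0.00402 in model over control livers with quantile scaling, and 0.00455 in BBBPH over control livers without the same 3, ranging from -0.0372 to 0.0287 without 1 library. The filter at 5 FPKM removed Slc30a10, which has no value there. The causes were not tested.

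Between same-numbered libraries of different groups (8 pairs), residuals correlated at -0.329 to 0.0239, which showed no likeness by number. This check cannot tell what the numbers mean, and it did not cover their first digit. With the replicate block, 1 of the 5 genes was called in model over control livers, 0 in BBBPH over model livers and 2 in BBBPH over control livers, and calls over all genes were 1032 higher and 283 lower, 101 and 204, and 135 and 50. Numbers 1_4 and 2_3 (model), 1_5 (control) and 3_1 and 3_2 (BBBPH) occur in a single library each. The block fits these libraries exactly, so its values rest on the remaining ones, with fewer than 12 residual degrees of freedom. Lost calls and changed directions under this block therefore do not show a pairing. The block gave 1.71 for Mt1 (adjusted p = 0.0537), 0.10 for Slc39a14 and 0.63 for Slc30a10 in model over control livers. In BBBPH over model livers it gave 0.94 for Mt1, 0.72 for Mt2, 0.0926 for Slc39a14, 0.34 for Slc30a1 and 0.0843 for Lcn2. Over control livers it gave, for BBBPH livers, 0.22 for Slc30a1 and 0.56 for Slc30a10. The first digit as a block gave 0.0933 for Mt1 in BBBPH over model livers and, in BBBPH over control livers, 0.30 for Slc30a1 (0.0504) and 0.63 for Slc30a10 (0.087), with 2 genes called.

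Leaving out 1 library at a time gave, in model over control livers, 0.20 to 0.35 for Slc39a14 and 3 to 4 called genes. In BBBPH over model livers it gave -0.68 to 0.32 for Mt1 and 0.40 to 0.64 for the log2 ratio of Mt1 to Mt2. In BBBPH over control livers it gave 1.57 to 2.16 for Mt1, 1.88 to 2.72 for Mt2, 0.47 to 0.80 for Slc30a10, 1 to 3 called genes and -0.55 to -0.31 for the log2 ratio.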
